A study of Mus musculus with 12 samples.

Results

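The MHC and interferon-response family genes were followed in RNA-Seq of hippocampal CA1, where the study asked which transcripts change after loss of the lysine acetyltransferase Tip60 (gene symbol Kat5). Members were chosen by symbol: the H2, B2m, Ifi, Ifn, Irf, Oas, Gbp, Isg, Irgm, Igtp, Iigp, Stat, Mx and Tlr names. The rule uses no measured value. That gave 87 of the 10245 gene symbols in the table. The labels give all animals as adult male C57BL/6N mice, while the study's methods speak of injected animals of both sexes. There was 1 library from each of 6 Tip60 conditional knockout (cKO) mice and 6 control littermates. Mice of both groups were homozygous for the floxed Tip60 gene, were given tamoxifen at 2 months of age and were killed 10 days after the last injection, and the dorsal CA1 of both hemispheres was pooled for each mouse. Tip60 cKO mice also carried a tamoxifen-activated Cre (CreERT2) under the Camk2a promoter, which directs deletion to excitatory forebrain neurons. Glia and vessel cells therefore kept the gene. Because the control mice lacked Cre, Tip60 loss and the presence of active Cre cannot be told apart.

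These families form the part of innate immunity that reads and answers interferon. Interferons bind receptors on almost every cell, and the receptors signal through JAK kinases and STAT and IRF transcription factors to switch on interferon-stimulated genes such as the Oas, Ifit, Gbp and Ifitm families. MHC class I molecules show peptides from inside the cell and MHC class II molecules show peptides taken up from outside. In brain, Toll-like receptors and MHC class II are found mainly on microglia and on macrophages at the borders and vessels. The tissue held all of these cells, so fewer cells of a type and less RNA per cell cannot be told apart.

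Levels are given in FPKM, which scales the fragments of a gene to transcript length and library size. Depth was estimated at 30.8 to 37.2 M reads per library (M, mega) from the value that 1 read takes. Kat5 itself was not analysed here, which left the labels without a check against the deleted gene. Of the CA1 pyramidal markers listed, 2 of 11 were in the table, and Pou3f1 was at 55.0 ± 5.87 FPKM in Tip60 cKO mice and 28.9 ± 2.31 FPKM in control mice (SD, n = 6 each). Genes listed as dentate granule cell markers were present in both groups at a summed 5.94 to 15.5 FPKM in Tip60 cKO mice and 6.13 to 20.5 FPKM in control mice. Of these, Stxbp6 alone was at 5.85 ± 1.11 FPKM in Tip60 cKO mice and 6.41 ± 1.43 FPKM in control mice. Whether CA1 cells express these genes was not tested. One library stood apart: Ttr, the choroid plexus gene for transthyretin, reached 201 FPKM in Tip60 cKO replicate 1, against no more than 0.911 FPKM elsewhere. Leaving that library out gave the same 3 called family genes as the full set.

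Most of the family was barely expressed in CA1. Of the 87 genes, 16 were listed at 0 in every library, 30 had a mean above 0 but under 0.1 FPKM, 21 were between 0.1 and 0.5 FPKM and 20 reached the mean of 0.5 FPKM needed for the test. Only 4 had a mean of 5 FPKM or more, namely Ifitm3, Irf2bp1, Ifitm2 and Ifngr1. The genes B2m and Irf7 were not analysed here. Genes were compared with limma on log2(FPKM + 1), a scale that understates changes of low genes, and were called at a Benjamini-Hochberg adjusted p below 0.05 over the 2413 genes tested together with a fold of FPKM + 1 above 1.2.

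Of the 20 family genes tested, 3 rose in Tip60 cKO mice (Oas1c, H2-DMb1 and Ifitm2) and 0 fell. That is 15% higher, against 19.8% of all tested genes called higher and 6.51% called lower. An unadjusted p below 0.05 was found in 6 of the 20, against 1435 of all 2413 tested genes. At an adjusted p below 0.05 with no fold threshold, the same number passed (30%), against 54.6% of all tested genes. The other 3 were Ifngr1, Isg20l2 and Irf2bp1. The family's median log2 change was 0.12 and that of all tested genes 0.09, with 19 of 20 family genes above 0. Median-ratio scaling put 14 of 20 above 0, with a family median of 0.05 against 0.01 for all genes, and called 1 of them, Oas1c. Over all genes it left 281 higher and 278 lower calls, against 477 and 157 as deposited. The share of calls that were higher was thus 50.3% after median-ratio scaling, 59.8% after upper-quartile scaling and 75.2% with the values as deposited.

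Low genes were examined in a separate fit with a mean of at least 0.1 FPKM and a pseudocount of 0.1 FPKM, which took in 41 family genes. Higher calls numbered 7 (17.1%), namely H2-DMb1, Ifitm2, Ifngr1, Isg20l2, Oas1c, Tlr1 and Tlr2, against 26.7% of the 3636 genes fitted. There was 1 lower call, Tlr5, where 5.94% of all genes were called lower. The family median was 0.20 and that of all genes 0.15. By the plain criterion that every Tip60 cKO library lies above every control library, 3 of the 20 tested family genes qualified, against 25.1% of tested genes, and 5 of the 71 with any value, against 12.3% of genes with any value. Those 5 were Oas1c, Ifngr1, Isg20l2, Tlr2 and Ifi202b.

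**Figure D1:**
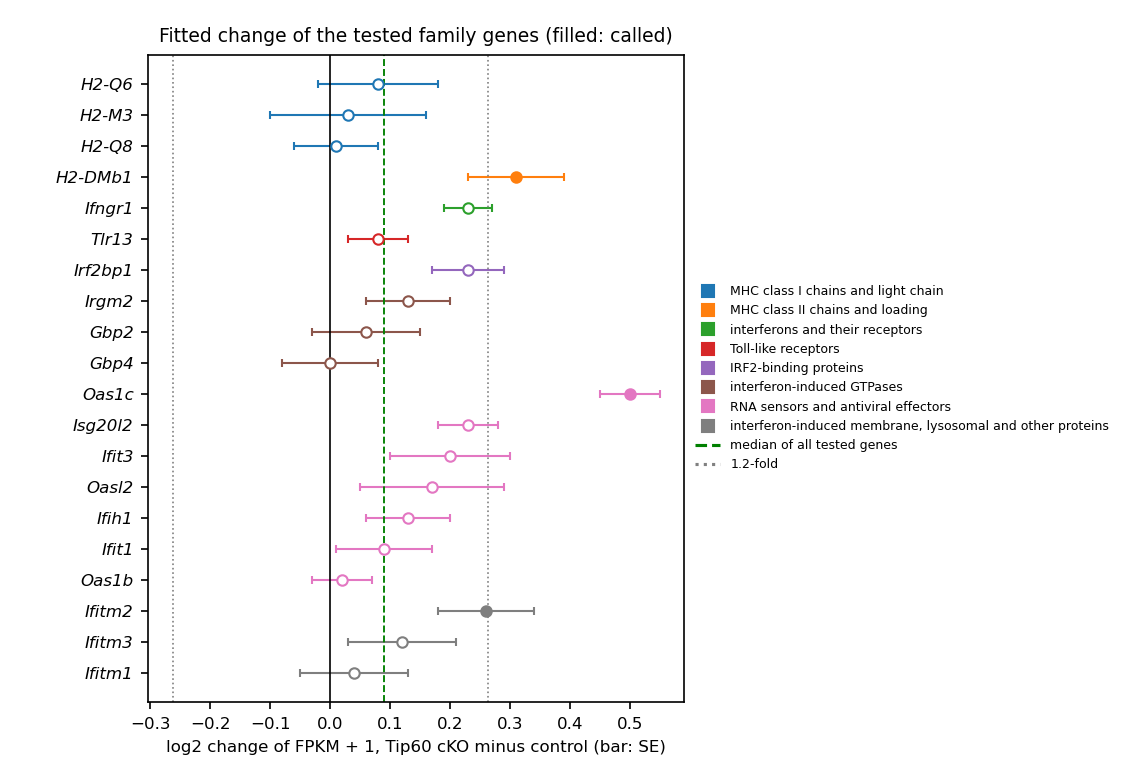
Fitted log2 change of FPKM + 1 (x axis, Tip60 cKO minus control, bars SE) for the 20 tested family genes, coloured by role, with filled points for called genes, the dashed line at the median of all tested genes and dotted lines at 1.2-fold. Oas1c stands at 0.50, H2-DMb1 at 0.31 and Ifitm2 at 0.26, and the open points lie between -0.00 and 0.23.

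Interferons themselves were close to absent. Among the 18 interferon and interferon receptor genes, 12 were at 0 in every library, including Ifnb1 and the 11 Ifna genes in the table. Ifnk and Ifnab, type I interferons, each had a value in 1 Tip60 cKO library alone, and Ifne in 1 control library alone. Ifnz had a trace value in every library, at 0.0178 to 0.0489 FPKM in Tip60 cKO mice and 0.00315 to 0.0227 FPKM in control mice, and the groups overlapped. Ifng, the interferon of T and NK cells, was at 0 in all 6 control mice and in 2 of 6 Tip60 cKO mice, and the other 4 Tip60 cKO libraries had 0.0257 to 0.0283 FPKM. On the longest coding transcript that is at most about 1.1 reads, so a difference was not detectable at this depth. Markers of T, NK and B lymphocytes were as sparse in both groups, with 15 of 16 in the table, 0 of them reaching the test, and a summed level of 0.648 to 1.23 FPKM in Tip60 cKO mice and 0.653 to 0.891 FPKM in control mice. The T cell receptor component Cd3e was at 0.0108 ± 0.0177 FPKM in Tip60 cKO mice and 0.0170 ± 0.0196 FPKM in control mice, and the NK receptor Ncr1 was at 0 throughout.

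The receptor genes Ifnar1, Ifnar2 and Ifngr2 were not analysed here. Ifngr1, which binds interferon gamma as the ligand-binding chain of its receptor, was the only receptor gene among the 18. It was also the only one of them with more than trace levels. It measured 6.07, 5.53, 5.59, 5.65, 5.92 and 5.71 FPKM in the 6 Tip60 cKO mice, against 4.36, 4.71, 4.57, 5.09, 4.92 and 4.80 FPKM in the 6 control mice. All 6 Tip60 cKO libraries lay above all 6 control libraries. The means of 5.75 ± 0.207 and 4.74 ± 0.258 FPKM (Tip60 cKO and control, SD, n = 6 each) differed 1.21-fold, and the log2 change of FPKM + 1 was 0.23 (SE 0.04, adjusted p = 0.000207), under the 1.2-fold threshold on that scale. With the pseudocount of 0.1 FPKM it was called (0.27, adjusted p = 0.000256), and after median-ratio scaling its change was 0.13 (adjusted p = 0.0052).

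Irf4, a transcription factor of lymphocytes, was at 0.0480 ± 0.0245 FPKM in Tip60 cKO mice and 0.0577 ± 0.0287 FPKM in control mice, and the groups overlapped. Stat4, which carries the interleukin 12 signal in lymphocytes, had 0.0381, 0.0835 and 0.112 FPKM as lowest, median and highest of the Tip60 cKO mice, against 0.00858, 0.0249 and 0.0437 FPKM in control mice. Its ratio of means was 3.10, from about 3.8 to 10 reads per Tip60 cKO library and 0.95 to 4.8 reads per control library, and the groups overlapped. The corepressor Irf2bp1, named for its binding to IRF2, was the family's next most abundant gene after Ifitm3. It had 10.97, 13.2, 11.2, 11.5, 13.4 and 12.9 FPKM in Tip60 cKO mice and 9.50, 9.77, 9.99, 9.85, 10.98 and 11.4 FPKM in control mice. Only the 2 highest control libraries reached the range of the Tip60 cKO libraries. The log2 change was 0.23 (SE 0.06, adjusted p = 0.00374), and 0.12 (adjusted p = 0.083) after median-ratio scaling.

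The largest fitted change among the tested family genes was that of Oas1c. It belongs to the oligoadenylate synthetase family, whose active members sense double-stranded RNA and make the messenger that activates RNase L. Oas1c had 0.836, 0.725, 0.658, 0.793, 0.847 and 0.706 FPKM in the Tip60 cKO mice, against 0.234, 0.241, 0.190, 0.192, 0.296 and 0.333 FPKM in the control mice. The lowest Tip60 cKO library, at 0.658 FPKM, was well above the highest control library, at 0.333 FPKM. The group means were 0.761 ± 0.0761 FPKM in Tip60 cKO mice and 0.248 ± 0.0569 FPKM in control mice (SD, n = 6 each), a ratio of 3.07. On log2(FPKM + 1) the change was 0.50 (SE 0.05, adjusted p = 3.8e-07) and on the lower pseudocount 1.32 (adjusted p = 5.65e-07). These values rest on roughly 48 to 68 reads per Tip60 cKO library and 16 to 28 reads per control library. Oas1c passed the filter through its level in the Tip60 cKO mice, with a mean over all libraries of 0.504 FPKM. In all 18 alternatives that tested it, the adjusted p lay between 2.85e-07 and 2.69e-06.

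Oas1c sits in a cluster of Oas genes on mouse chromosome 5, and 8 of the 10 cluster genes in the RefSeq order were in the table. The other cluster genes are given by their values, and their differences from Oas1c were not tested. On one side, beyond Oas1e, Oas3 had 0.328, 0.353 and 1.72 FPKM as lowest, median and highest in Tip60 cKO mice, against 0.272, 0.295 and 0.475 FPKM in control mice, and 1 library, Tip60 cKO replicate 4, held the 1.72. Its log2 change in the lower filter fit was 0.43 (adjusted p = 0.281). On the other side Oas1b, a transcribed pseudogene in the reference strain, was at 0.611 ± 0.106 FPKM in Tip60 cKO mice and 0.584 ± 0.0506 FPKM in control mice (log2 change 0.02, adjusted p = 0.731). Oas1g was at 0.0952 ± 0.0123 FPKM in Tip60 cKO mice and 0.0940 ± 0.0251 FPKM in control mice, and Oas1d, Oas1e, Oas1f and Oas1h stayed under 0.05 FPKM in every library. At these trace levels Oas1e, the immediate neighbour, averaged 0.00951 ± 0.00948 FPKM in Tip60 cKO mice and 0.00156 ± 0.00203 FPKM in control mice, and Oas1f averaged 0.0109 ± 0.0175 FPKM in Tip60 cKO mice and 0.000304 ± 0.000478 FPKM in control mice, with overlap in both. The Oas1 genes are close copies, and neither the assignment of reads shared between them nor the strandedness of the libraries is known here, so the split between Oas1c and its copies is less certain than a single-copy level.

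**Figure D2:**
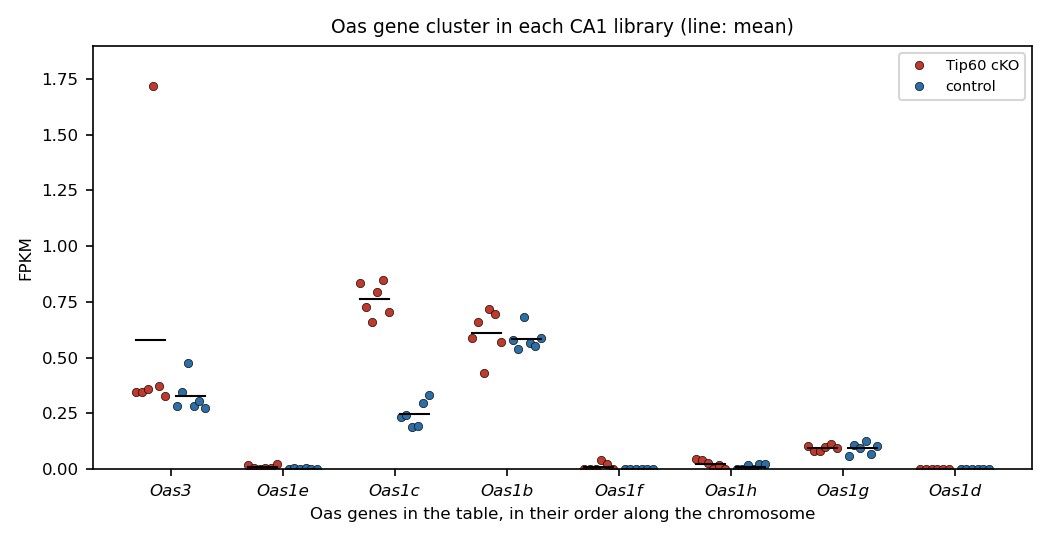
FPKM (y axis) of the 8 Oas cluster genes in the table, in chromosome order (x axis), with 1 point per library, Tip60 cKO left and control right of each gene name, and a line at each mean. Oas1c is the gene whose groups separate, with means of 0.761 and 0.248 FPKM in Tip60 cKO and control mice, and the single high Oas3 point is Tip60 cKO replicate 4 at 1.72 FPKM.

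The promoters of Oas1c, of Oas3 from the same cluster and of Ifit3 are shown because all 3 hold the core of the interferon-stimulated response element, while only Oas1c was called. They run from 250 bases before to 50 bases after the gene start and were taken from RefSeq on GRCm38.p6, at chr5:120812465-120812764 (minus strand), chr5:120777610-120777909 (minus strand) and chr19:34583279-34583578 (plus strand) in that order. Capitals mark matches to GAAANNGAA on either strand, where overlapping matches run together.
Oas1c: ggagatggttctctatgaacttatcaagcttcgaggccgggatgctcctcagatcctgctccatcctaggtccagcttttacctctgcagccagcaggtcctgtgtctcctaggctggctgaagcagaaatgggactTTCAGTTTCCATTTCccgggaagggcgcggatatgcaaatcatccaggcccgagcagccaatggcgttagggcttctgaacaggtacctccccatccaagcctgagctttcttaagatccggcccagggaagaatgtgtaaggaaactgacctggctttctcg
Oas3: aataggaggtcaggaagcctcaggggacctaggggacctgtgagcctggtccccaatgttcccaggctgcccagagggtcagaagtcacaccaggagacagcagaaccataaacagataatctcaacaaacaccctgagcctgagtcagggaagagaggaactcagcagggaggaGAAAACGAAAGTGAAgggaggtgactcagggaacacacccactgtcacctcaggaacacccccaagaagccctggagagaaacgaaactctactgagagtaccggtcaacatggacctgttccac
Ifit3: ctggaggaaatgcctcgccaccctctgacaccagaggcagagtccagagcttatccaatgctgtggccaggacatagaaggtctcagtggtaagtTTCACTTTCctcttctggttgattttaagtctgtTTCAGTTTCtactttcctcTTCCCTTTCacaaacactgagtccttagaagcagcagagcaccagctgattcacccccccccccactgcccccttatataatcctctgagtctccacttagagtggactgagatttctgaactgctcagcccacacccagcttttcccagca
Oas1c had 2 matches, starting at -113 and -107 bases from the gene start, Oas3 had 2, at -75 and -69, and Ifit3 had 3, at -155, -121 and -102.

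Across the family, 70 of the 87 genes had a promoter in the RefSeq table and 25 of the 70 (35.7%) held GAAANNGAA, against 9.76% of all 27025 genes with a promoter. Of the 25, 10 were type I interferon genes, which are close copies of one another. The gamma-activated site TTCNNNGAA was in 20 of 70 (28.6%), against 9.55% of all genes. CCAAT was in 41 of 70 (58.6%), against 41.1%, and TGACG in 15 of 70 (21.4%), against 23%. Both strands were searched for each, and a longer site can hold more than one of these motifs. Among the 17 tested genes with a promoter, 8 held GAAANNGAA, of which 2 were called (Oas1c and Ifitm2), and 9 did not, of which 1 was called (H2-DMb1). CCAAT was in 7 of the 17, with 3 called, and 0 of the other 10 were called. The gamma-activated site was in 4, with 0 called, and TGACG in 5, with 0 called, so that all 3 called genes lacked both. A match is a description of letters and says nothing of binding.

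The other antiviral effectors and RNA sensors gave smaller differences. Isg20l2, a nucleolar exonuclease named for its likeness to the interferon-induced Isg20, had 4.79, 4.68, 3.98, 4.69, 4.18 and 4.49 FPKM in Tip60 cKO mice, against 3.74, 3.61, 3.47, 3.93, 3.44 and 3.84 FPKM in control mice. The groups did not overlap, but the gap between them was narrow. Its log2 change was 0.23 (SE 0.05, adjusted p = 0.00103), under 1.2-fold, and it was called with the lower pseudocount (0.28, adjusted p = 0.00123). Isg20 itself, an exonuclease that degrades viral RNA, ranged from 0.323 to 0.671 FPKM in Tip60 cKO mice and from 0.121 to 0.525 FPKM in control mice.

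Ifit3, which works with Ifit1 against viral RNA that lacks a host cap, averaged 3.84 ± 0.695 FPKM in Tip60 cKO mice and 3.20 ± 0.474 FPKM in control mice (log2 change 0.20, SE 0.10, adjusted p = 0.101). For Ifit1 the means were 0.878 ± 0.212 FPKM in Tip60 cKO mice and 0.764 ± 0.171 FPKM in control mice (0.09, adjusted p = 0.369). Ifih1, the cytoplasmic sensor MDA5, averaged 0.799 ± 0.162 FPKM in Tip60 cKO mice and 0.643 ± 0.144 FPKM in control mice (0.13, adjusted p = 0.123). The means of Oasl2, an Oas-like protein, were 1.57 ± 0.453 FPKM in Tip60 cKO mice and 1.28 ± 0.346 FPKM in control mice (0.17, adjusted p = 0.25). None of these 4 passed the test with all 12 libraries, and their groups overlapped.

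One library weighed on these genes. Tip60 cKO replicate 3 was the lowest of the Tip60 cKO libraries in 13 of the 20 tested family genes, and control replicate 1 was the lowest of the controls in 11 of 20. Without Tip60 cKO replicate 3, Ifit3 was called (log2 change 0.27, adjusted p = 0.0191), so 4 family genes were called in place of 3, and 10 in place of 6 had an adjusted p below 0.05. Of all tested genes, 21.1% were called higher and 55.2% had an adjusted p below 0.05 without that library. The 3 further genes were Ifih1 (0.17, adjusted p = 0.0469), Ifitm3 (0.20, adjusted p = 0.0208) and Irgm2 (0.17, adjusted p = 0.025). Leaving out a library picked for its low values raises the mean of its group by construction. Without control replicate 1 the same 4 changes were smaller and 3 family genes were called. They were 0.145 for Ifit3 (adjusted p = 0.218), 0.121 for Ifih1 (adjusted p = 0.188), 0.096 for Ifitm3 (adjusted p = 0.454) and 0.085 for Irgm2 (adjusted p = 0.274). No label sets Tip60 cKO replicate 3 apart, and its low values were not tested against a cause.

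**Figure D3:**
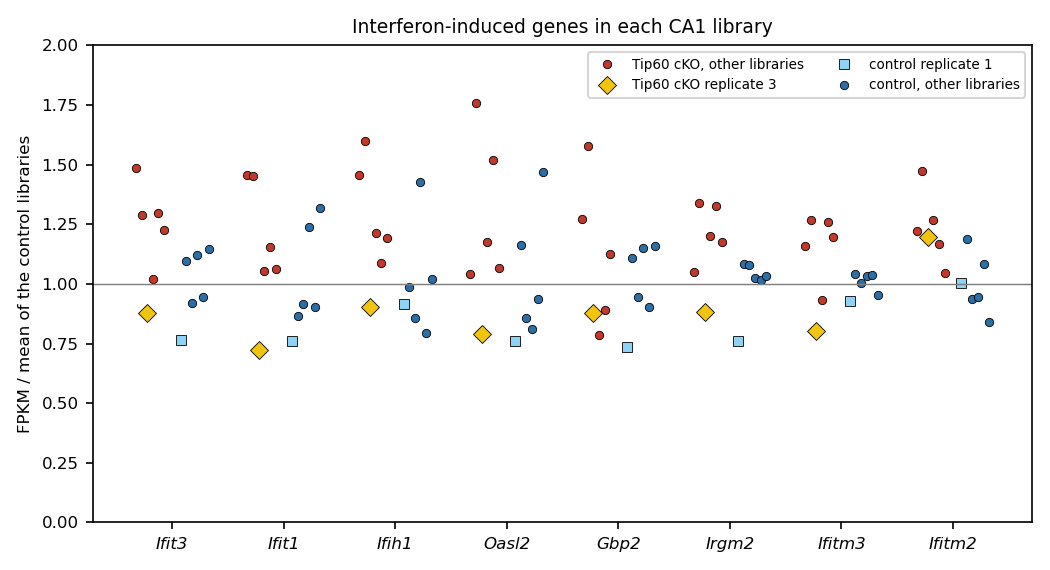
Level of 8 interferon-induced genes in each library divided by the control mean of that gene (y axis), with Tip60 cKO left and control right of each gene name (x axis), the diamond marking Tip60 cKO replicate 3 and the square control replicate 1. The diamond is the lowest Tip60 cKO point in Ifit3, Ifit1, Ifih1, Oasl2, Irgm2 and Ifitm3, and the groups overlap in all 8 genes.

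The Ifitm proteins sit in endosomal and plasma membranes and block the entry of enveloped viruses. Ifitm2 rose in Tip60 cKO mice, where the lowest, median and highest values were 7.19, 8.31 and 10.12 FPKM, against 5.78, 6.70 and 8.15 FPKM in control mice. The log2 change was 0.264 (SE 0.08, adjusted p = 0.00877), at the edge of the 1.2-fold threshold. The call was lost after median-ratio scaling (0.158, adjusted p = 0.103) and after upper-quartile scaling (0.199, adjusted p = 0.0348). It was also lost, with adjusted p of 0.0189 to 0.0213 but a fold under 1.2, when 1 of 5 libraries was left out: Tip60 cKO replicate 2 (0.216), Tip60 cKO replicate 4 (0.255), control replicate 3 (0.250), control replicate 4 (0.252) or control replicate 6 (0.223). Ifitm3, the most abundant gene of the whole family, averaged 14.2 ± 2.46 FPKM in Tip60 cKO mice and 12.9 ± 0.616 FPKM in control mice (0.12, adjusted p = 0.32). The Tip60 cKO libraries reached 16.3 FPKM, against 13.4 FPKM at most in control mice, while Tip60 cKO replicate 3 lay below every control library. Ifitm1 averaged 2.11 ± 0.488 FPKM in Tip60 cKO mice and 2.00 ± 0.258 FPKM in control mice (0.04, adjusted p = 0.718).

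Among the interferon-induced GTPases, which attack vacuoles that hold pathogens, 0 of 3 tested genes were called and 0 had an unadjusted p below 0.05 in limma. Of all 2413 tested genes, 1435 had one below 0.05. Irgm2 averaged 1.56 ± 0.233 FPKM in Tip60 cKO mice and 1.34 ± 0.161 FPKM in control mice (log2 change 0.13, adjusted p = 0.122). Gbp2 averaged 1.34 ± 0.371 FPKM in Tip60 cKO mice and 1.23 ± 0.209 FPKM in control mice (0.06, adjusted p = 0.63), and Gbp4 averaged 0.787 ± 0.173 FPKM in Tip60 cKO mice and 0.796 ± 0.224 FPKM in control mice (-0.00, adjusted p = 0.975). Below the filter, Gbp6 ranged from 0.219 to 0.505 FPKM in Tip60 cKO mice and from 0.244 to 0.401 FPKM in control mice. The antiviral GTPase Mx2 ranged from 0.300 to 0.587 FPKM in Tip60 cKO mice and from 0.271 to 0.455 FPKM in control mice.

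The PYHIN proteins bind DNA in the cytoplasm or nucleus, and none of the 3 in the table reached the test. Ifi202b, whose level is known to differ widely between inbred mouse strains, was present in one genotype alone. It had 0.0955, 0.0324, 0.141, 0.151, 0.0715 and 0.200 FPKM in the Tip60 cKO mice and was listed at 0 in all 6 control mice. On its annotated transcript of 1697 bases that corresponds to about 1.9 to 11 reads per Tip60 cKO library. Its close relatives Ifi204 (0.162 ± 0.0660 FPKM in Tip60 cKO mice and 0.104 ± 0.0447 FPKM in control mice) and Ifi205 (0.0371 ± 0.0269 FPKM in Tip60 cKO mice and 0.0419 ± 0.0249 FPKM in control mice) overlapped between the groups, and reads may be shared between these copies.

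The Toll-like receptors, which recognise microbial products, were low as a group, and in the lower filter fit 2 of 6 were called higher and 1 lower, against 26.7% and 5.94% of all genes. Tlr2, the receptor for bacterial lipoproteins, had 0.563, 0.486, 0.391, 0.572, 0.600 and 0.679 FPKM in Tip60 cKO mice, against 0.314, 0.311, 0.311, 0.341, 0.223 and 0.252 FPKM in control mice. All Tip60 cKO libraries exceeded all control libraries, from roughly 38 to 69 reads each against 22 to 38. In the lower filter fit its log2 change was 0.72 (SE 0.13, adjusted p = 0.000293), and the call held in 15 of 15 further settings of that fit, with an adjusted p of at most 0.00107. Tlr1, its partner in the lipoprotein receptor, had a lowest, median and highest value of 0.200, 0.279 and 0.362 FPKM in Tip60 cKO mice and 0.104, 0.183 and 0.235 FPKM in control mice (log2 change 0.45, SE 0.15, adjusted p = 0.0241).

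Tlr5, the flagellin receptor, went the other way. Its lowest, median and highest values were 0.0795, 0.0962 and 0.127 FPKM in Tip60 cKO mice, against 0.125, 0.151 and 0.215 FPKM in control mice, where 1 Tip60 cKO library reached into the control range (log2 change -0.37, SE 0.13, adjusted p = 0.0288). Its mean was under the 0.1 FPKM filter in Tip60 cKO mice, so it entered the fit through its level in control mice. Single libraries decided the calls of Tlr1 and Tlr5. The call of Tlr1 was lost without Tip60 cKO replicate 5 (0.39, adjusted p = 0.0572), Tip60 cKO replicate 6 (0.41, adjusted p = 0.052) or control replicate 1 (0.36, adjusted p = 0.0555), and under both scalings. That of Tlr5 was lost without Tip60 cKO replicate 6 (-0.34, adjusted p = 0.0592), control replicate 1 (-0.34, adjusted p = 0.0626) or control replicate 4 (-0.31, adjusted p = 0.0729). Tlr4, the endotoxin receptor, averaged 0.250 ± 0.0550 FPKM in Tip60 cKO mice and 0.293 ± 0.0615 FPKM in control mice (-0.17, adjusted p = 0.349). Tlr13, which senses bacterial ribosomal RNA, was the only Toll-like receptor in the main test, at 0.683 ± 0.0455 FPKM in Tip60 cKO mice and 0.598 ± 0.0925 FPKM in control mice (0.08 on log2(FPKM + 1), adjusted p = 0.171).

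**Figure D4:**
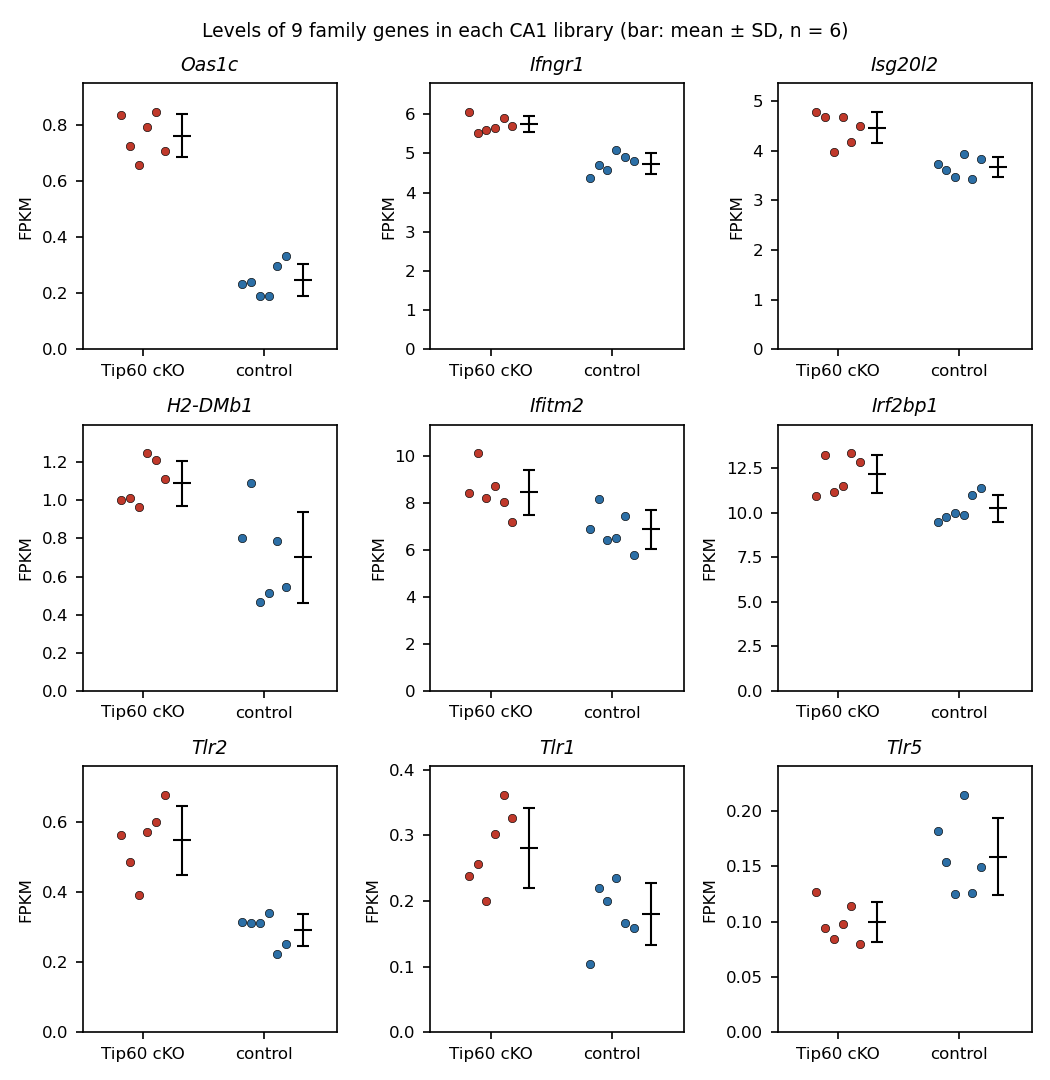
FPKM (y axis, from 0) in each library of 9 family genes, with the 6 Tip60 cKO libraries left and the 6 control libraries right and a bar for mean ± SD. The groups separate in Oas1c, Ifngr1, Isg20l2 and Tlr2, overlap in H2-DMb1, Ifitm2, Irf2bp1, Tlr1 and Tlr5, and Tlr5 alone is lower in Tip60 cKO mice.

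In MHC class II, only the peptide loading gene H2-DMb1 was high enough to test. It encodes the beta chain of H2-DM, which exchanges peptides on class II molecules. H2-DMb1 had 1.00, 1.01, 0.965, 1.25, 1.21 and 1.11 FPKM in Tip60 cKO mice, against 0.802, 1.09, 0.465, 0.516, 0.786 and 0.543 FPKM in control mice. One control library, replicate 2, lay within the Tip60 cKO range and the other 5 lay below it. The means were 1.09 ± 0.118 FPKM in Tip60 cKO mice and 0.700 ± 0.238 FPKM in control mice, with a log2 change of 0.31 (SE 0.08, adjusted p = 0.00403). After median-ratio scaling the change of 0.25 (adjusted p = 0.0157) was under 1.2-fold. The sister gene H2-DMb2, a close copy, was at 0.362 ± 0.114 FPKM in Tip60 cKO mice and 0.362 ± 0.0646 FPKM in control mice.

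The class II chains themselves were lower and overlapped. H2-Aa ranged from 0.308 to 0.643 FPKM in Tip60 cKO mice and from 0.166 to 0.896 FPKM in control mice. H2-Ab1 ranged from 0.227 to 0.592 FPKM in Tip60 cKO mice and from 0.217 to 0.480 FPKM in control mice, and H2-Eb1 from 0.317 to 0.578 FPKM in Tip60 cKO mice and from 0.215 to 0.495 FPKM in control mice. H2-Oa, a chain of H2-O, which restrains H2-DM, ranged from 0.199 to 0.638 FPKM in Tip60 cKO mice and from 0.205 to 0.478 FPKM in control mice. In the lower filter fit 7 class II genes were tested and H2-DMb1 alone was called, a share of 14.3% against 26.7% of all genes called higher.

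MHC class I gave no call. Of 16 class I genes in the table, 3 were tested, and 0 of them had an unadjusted p below 0.05 in limma, against 1435 of all 2413 tested genes. H2-M3, which presents formylated bacterial peptides, averaged 1.74 ± 0.397 FPKM in Tip60 cKO mice and 1.72 ± 0.567 FPKM in control mice (log2 change 0.03, SE 0.13). H2-Q6 averaged 0.611 ± 0.199 FPKM in Tip60 cKO mice and 0.525 ± 0.220 FPKM in control mice (0.08, SE 0.10), and H2-Q8 averaged 0.566 ± 0.0966 FPKM in Tip60 cKO mice and 0.558 ± 0.178 FPKM in control mice (0.01, SE 0.07). The Q genes are near-identical copies. The summed class I level was 3.0 to 3.61 FPKM in Tip60 cKO mice and 2.20 to 4.39 FPKM in control mice. The abundant H2-K1 and H2-D1 were not analysed here.

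Genes that work with these families were counted from lists. Of the antigen processing list, 8 of 31 genes were in the table and 0 of 6 tested were called. Of all tested genes 19.8% were called higher and 6.51% lower. Of all 2413 tested genes, 1435 had an unadjusted p below 0.05 in limma, and in the list 2 of the 6 did. Those were Cd1d1, which presents lipids, at 0.638 ± 0.0646 FPKM in Tip60 cKO mice and 0.369 ± 0.0526 FPKM in control mice (log2 change 0.26, adjusted p = 0.000142, tested through its level in Tip60 cKO mice, since its control mean is under the filter), and the protease Ctss at 43.0 ± 3.73 FPKM in Tip60 cKO mice and 36.5 ± 3.04 FPKM in control mice (0.23, adjusted p = 0.00618). The list's median was 0.13, close to the 0.09 of all genes. In the lower filter fit 1 of 7 was called higher (14.3%), against 26.7% of all genes. Of interferon receptor signalling, 5 of 18 genes were in the table and 1 of 4 tested was called higher, against 19.8% of all tested genes. That gene was Ptpn2, a phosphatase that turns off JAK and STAT signals, at 8.89 ± 0.239 FPKM in Tip60 cKO mice and 6.73 ± 0.591 FPKM in control mice (0.36, adjusted p = 2.34e-05). Ptpn6, a phosphatase of blood cells (0.23, adjusted p = 0.00318), and Cish, a feedback inhibitor of cytokine receptors (0.19, adjusted p = 0.0131), passed the adjusted p but stayed under 1.2-fold on FPKM + 1, with ratios of mean FPKM of 1.29 and 1.38, and both were called higher in the lower filter fit. The 4 tested genes had a median of 0.21. In the lower filter fit 3 of 5 genes of this list were called higher (60%), against 26.7% of all genes.

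Interferon-stimulated genes outside the named families gave 0 higher calls and 1 lower call among 6 tested, from 19 of 62 in the table. Of all tested genes 19.8% were called higher and 6.51% lower. The 6 had a median of 0.18, and 4 of them had an unadjusted p below 0.05 in limma, against 1435 of all 2413 tested genes. The lower one was Cmpk2, a mitochondrial nucleotide kinase, at 3.19 ± 0.276 FPKM in Tip60 cKO mice and 4.71 ± 0.372 FPKM in control mice (log2 change -0.45, adjusted p = 9.93e-06). Slfn2 (0.26, adjusted p = 0.0293), Epsti1 (0.23, adjusted p = 0.0126) and Dtx3l (0.21, adjusted p = 0.00268) passed the adjusted p but stayed under 1.2-fold on FPKM + 1, with ratios of mean FPKM of 1.36, 1.61 and 1.29. All 3 were called higher in the lower filter fit. In the main test Epsti1 passed the filter through its level in Tip60 cKO mice (0.654 FPKM), against a control mean of 0.405 FPKM. Rsad2, which encodes the antiviral protein viperin, was at 0.391 ± 0.0937 FPKM in Tip60 cKO mice and 0.232 ± 0.0289 FPKM in control mice and was called higher in the lower filter fit (0.55, adjusted p = 0.00415). So was the chemokine Cxcl10, at 0.604 ± 0.342 FPKM in Tip60 cKO mice and 0.0765 ± 0.0555 FPKM in control mice (1.84, adjusted p = 0.00114), although the groups overlapped and it passed that filter through its level in the Tip60 cKO mice. In that fit 5 of 13 listed genes were called higher, or 38.5%, and 1 lower, against 26.7% higher and 5.94% lower of all genes.

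Toll-like receptor and sensor signalling had 6 of 45 genes in the table and 4 tested, with a median log2 change of 0.06, 1 higher call and 1 lower call. Of all tested genes 19.8% were called higher and 6.51% lower. In the lower filter fit 2 of 6 were called higher and 1 lower, against 26.7% and 5.94% of all genes. Lbp, which carries endotoxin to its receptor, was at 1.5 ± 0.367 FPKM in Tip60 cKO mice and 0.575 ± 0.264 FPKM in control mice (log2 change 0.67, adjusted p = 0.000172). Tnfaip3, encoding the NF-kB inhibitor A20, was at 0.930 ± 0.0978 FPKM in Tip60 cKO mice and 1.72 ± 0.124 FPKM in control mice (-0.50, adjusted p = 5.61e-07). Both had groups that did not overlap.

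Markers of the cells that usually express MHC class II and Toll-like receptors moved in part. Of 8 microglial markers in the table (of 19 listed), 3 were called higher and 1 lower, against 19.8% and 6.51% of all tested genes, with a summed level of 134 to 173 FPKM in Tip60 cKO mice and 127 to 146 FPKM in control mice, and none was at 0. C1qa was at 43.4 ± 4.18 FPKM in Tip60 cKO mice and 32.6 ± 2.39 FPKM in control mice (log2 change 0.40, adjusted p = 8.42e-05), and C1qc at 38.9 ± 3.83 FPKM in Tip60 cKO mice and 30.7 ± 2.36 FPKM in control mice (0.33, adjusted p = 0.000547). Tyrobp was at 28.5 ± 4.06 FPKM in Tip60 cKO mice and 20.9 ± 1.70 FPKM in control mice (log2 change 0.42, adjusted p = 0.000474). In the other direction P2ry13 was at 4.17 ± 0.516 FPKM in Tip60 cKO mice and 5.34 ± 0.468 FPKM in control mice (-0.30, adjusted p = 0.00202), and Tmem119 (-0.20, adjusted p = 0.00408) and Selplg (-0.18, adjusted p = 0.0055) were lower by less than 1.2-fold on FPKM + 1. The receptor Cx3cr1 was at 12.8 ± 0.984 FPKM in Tip60 cKO mice and 13.1 ± 0.866 FPKM in control mice (-0.03, adjusted p = 0.611). Perivascular macrophage and monocyte markers, 11 of 13 in the table, gave 1 higher call among 4 tested, with a summed level of 10.34 to 14.2 FPKM in Tip60 cKO mice and 8.39 to 10.17 FPKM in control mice. That call was Lyz2, at 6.35 ± 0.812 FPKM in Tip60 cKO mice and 3.97 ± 0.225 FPKM in control mice (0.56, adjusted p = 6.9e-06). In the lower filter fit, where Tlr1 and Tlr2 were called, 4 of 9 of these markers were called higher, against 26.7% of all genes. They included Lyve1, at 0.398 ± 0.117 FPKM in Tip60 cKO mice and 0.123 ± 0.0224 FPKM in control mice (1.14, adjusted p = 2.73e-05), and F13a1 (0.55, adjusted p = 0.00249). Not called there were Mrc1 (0.19, adjusted p = 0.145), Ms4a7 (0.24, adjusted p = 0.242) and Pf4 (0.00, adjusted p = 0.997). The same held for S100a9 (0.65, adjusted p = 0.156) and for S100a8, which leaned lower (-0.63, adjusted p = 0.316). Markers of cells outside the immune system differed in part. Among tested markers, 0 of 1 of astrocytes, 0 of 2 of the oligodendrocyte lineage and 0 of 4 of dentate granule cells were called. Of endothelial and mural markers 1 of 4 tested was called higher, Acta2 (0.27, adjusted p = 0.0349). Choroid plexus and ependyma markers gave 1 higher call among 3 tested, Dynlrb2 (0.52, adjusted p = 0.0332). Of the meningeal and fibroblast markers 2 of 6 tested were called higher, Mgp (0.63, adjusted p = 8.46e-05) and Dcn (0.59, adjusted p = 0.00132). Dcn is also on the CA1 pyramidal list. Not called were Lum (-0.01, adjusted p = 0.931), Ogn (-0.01, adjusted p = 0.953), Igf2 (0.23, adjusted p = 0.0338) and Igfbp2 (0.18, adjusted p = 0.134). Of 13 neuronal markers listed 3 were in the table, all of them interneuron genes. All 3 were called higher: Sst (0.96, adjusted p = 7.5e-11), Npy (1.11, adjusted p = 2.72e-09) and Slc32a1 (0.30, adjusted p = 4.25e-05). The part of these cells in the differences of H2-DMb1, Tlr1, Tlr2 and Ifngr1 was not tested.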

How the data were processed

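Total RNA of CA1 from 6 Tip60 cKO and 6 control mice was made into TruSeq RNA libraries per the labels. The deposited values are the authors' FPKM for each gene row in each library. Alignment was to mm9 with TopHat2 2.0.8, and bedtools 2.16.2, CASAVA 1.8.2 and FastQC 0.10.0 also appear in the submitters' processing notes. The strandedness, and the program and annotation behind the FPKM values, were not given in the sources used here. A count-based analysis on mm10 in the study was made separately. Since FPKM is relative to a library's total, a common shift of many genes and a change of that total look alike.

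Of 10383 rows, 100 exact repeats were dropped and rows of 1 symbol were added up. Left out were 530 small RNA genes, 2414 genes that were 0 throughout, and 46 with isolated 0 values although their other libraries had a median of 1 FPKM or more. Family genes in these sets, apart from 16 at 0 throughout, numbered 0. The 2413 genes with means of 0.5 FPKM or more were fitted on log2(FPKM + 1) with limma 3.58.1 (R 4.3.3, trend and robust), with Benjamini-Hochberg adjustment. The plan named edgeR in case the values were counts, and it was not used. Alternatives were a pseudocount of 0.1 FPKM, other filters, median-ratio and upper-quartile scaling, a constant prior and each library left out. The test was also run on simulated data with normal spread and a minority of genes changed. Such data do not cover low read numbers or a common shift of many genes. Depth came from genes with 1 transcript, whose smallest values mark 1 read, and read numbers used the longest GENCODE coding transcript, so both are estimates.

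The family genes and lists were chosen with earlier results of these data known. All tested family genes are named, those past an adjusted p of 0.05 in full, as are genes below the filter that reached 0.5 FPKM in a library, and up to 4 genes of each pathway list by smallest p. Cell markers were named to show the range within a list. Genes named outside that rule, among them Tlr1, Tlr4, Tlr5, Ifi202b, Stat4, Ifng, Rsad2 and Cxcl10, were chosen after their values were seen.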

Additional observations from a re-analysis of the deposited data

Results flagged for a closer look

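In 9 of 82 groups examined, 1 library lay far from the other 5. For independent normal values about 4.1 (1 in 20) would be flagged. Low FPKM values from few reads need not follow that, so the number is only a rough guide. The most extreme was Oas3, at 1.72 FPKM in Tip60 cKO replicate 4 with the other Tip60 cKO libraries between 0.328 and 0.373 FPKM, and at 0.475 FPKM in control replicate 3 with the other controls between 0.272 and 0.344 FPKM. Ifitm6 was at 0.157 FPKM in Tip60 cKO replicate 6, with the others at 0.075 to 0.0843 FPKM, and Tlr12 was at 0.0943 FPKM in Tip60 cKO replicate 3, with the others at 0.204 to 0.258 FPKM.

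Among the controls, H2-Aa was at 0.896 FPKM in replicate 3 (others 0.166 to 0.430 FPKM) and Oas1b at 0.680 FPKM in the same library (others 0.537 to 0.588 FPKM). Ifih1 was at 0.917 FPKM in control replicate 4 (others 0.511 to 0.657 FPKM) and Tlr13 at 0.774 FPKM in control replicate 6 (others 0.523 to 0.613 FPKM). Irgm2 was low, at 1.02 FPKM, in control replicate 1 (others 1.36 to 1.46 FPKM).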

How the results depend on the processing

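Family genes called higher numbered 3 with the main settings, 5 with a pseudocount of 0.1 FPKM, 7 with the lower filter, 1 with a mean of at least 1 FPKM (Ifitm2) and 1 after median-ratio scaling (Oas1c), and 2 to 4 when single libraries were left out. Those called lower numbered 0, or 1 with the lower filter. Over all genes, 477 higher calls became 970 with the lower filter, 281 after median-ratio scaling and 457 to 508 with single libraries left out, and 157 lower calls became 278 after median-ratio scaling and 153 to 177 with single libraries left out. Pathway list genes called higher numbered 2, against 8 with the pseudocount of 0.1 FPKM, 11 with the lower filter, 1 after median-ratio scaling and 2 to 6 with single libraries left out.

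Changes near 0 turned sign. After median-ratio scaling they were -0.008 for Gbp2, -0.048 for H2-M3, -0.030 for H2-Q8, -0.037 for Ifitm1 and -0.024 for Oas1b, and after upper-quartile scaling -0.021 for H2-M3, -0.014 for H2-Q8, -0.006 for Ifitm1 and -0.007 for Oas1b. With single libraries left out, Gbp2 ranged from -0.009 to 0.107, Gbp4 from -0.040 to 0.045, H2-M3 from -0.056 to 0.101, H2-Q8 from -0.020 to 0.067 and Ifitm1 from -0.017 to 0.083. The cause was not tested. Settings for Tlr1, Tlr2 and Tlr5 within the lower filter fit were chosen after seeing the data. No paired analysis was possible because replicate numbers only follow the order of the libraries and pair no mice. At about 1 FPKM and below, values rest on few reads, which limits what could be detected.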
